A study of Mus musculus with 30 samples.

Results

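The skin of wild type (WT) mice was examined on the fourth day after a course of TPA, against control skin of the same genotype. The samples were chosen by their labels alone: the 3 WT arrays of day 4 and the 3 WT arrays of day 0, 6 of the 30 arrays of the series, with all genes on the array. The mice were females of a mixed 129–C57BL/6 strain, 8 to 12 weeks old, and neither of these groups carried a deletion. The shaved back of the day 4 mice had received 3 applications of 50 uM TPA in acetone, 24 hours apart, and the whole back skin was taken 4 days after the last one. The day 0 mice had been given acetone on the same skin, although the titles of their samples call them untreated. The other arrays of the series are WT skin 1, 2 and 6 days after TPA and the same days in D6-deficient mice, which lack a chemokine-scavenging receptor. Each array holds the RNA of 1 mouse, so the spread between the 3 arrays of a group covers the spread between mice.

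TPA (12-O-tetradecanoylphorbol-13-acetate) is a phorbol ester that stands in for diacylglycerol and activates protein kinase C. On mouse skin it is the classic irritant and tumour promoter: keratinocytes divide, the epidermis thickens, and neutrophils enter from the blood along gradients of CXC chemokines that act on the receptor CXCR2. Keratinocytes that leave the basal layer normally replace the keratin pair Krt5 and Krt14 by Krt1 and Krt10 and then lay down loricrin and filaggrin, whereas wounded or inflamed epidermis makes the stress keratins Krt6, Krt16 and Krt17 and the small proline-rich proteins instead.

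At day 4 the skin held far more RNA of neutrophil chemokines, of neutrophil receptors, of stress keratins, of small proline-rich proteins and of matrix metalloproteinases than control skin, and far less of the spinous keratins Krt10, Krt1 and Krt77 and of several enzymes of fatty acid synthesis. Of 36029 probe sets tested, limma called 1169 (3.24%), by which is meant a difference above 3-fold whose p-value, after Benjamini-Hochberg adjustment, was below 0.05. Of these, 635 were higher (1.76%) and 534 lower (1.48%) at day 4. Counted by genes, with the brightest probe set of each, 425 of 17769 rose (2.39%) and 337 fell (1.90%). All values are log2 of the deposited RMA intensity, and differences are day 4 minus day 0 on that scale unless said otherwise. Over all genes the median difference was 0.0025. The tissue is whole skin, so fewer cells of a type and less RNA per cell cannot be told apart in any decrease, nor more cells and more RNA per cell in any increase.

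Within each group the arrays were alike, with correlations of 0.986 to 0.992 over the tested probe sets, against 0.933 to 0.958 between the groups. The array of day 4 replicate 2 lay nearest to the controls in both directions. The genes that rose were at a median of 2.14 above the day 0 mean on this array, against 2.42 and 2.60 on replicates 1 and 3. The genes that fell were at -1.71, against -2.02 and -2.31. Among the controls, day 0 replicate 1 read higher than the others for several genes of irritated epidermis: Krt6b, Krt16, S100a8 and S100a9, and also Sprr2d (8.19, 5.32 and 6.49), Lce3f (7.06, 5.03 and 5.82), Lcn2 (8.59, 6.42 and 7.31), Saa3 (9.06, 6.66 and 7.38) and Stfa3 (9.81, 7.72 and 7.97). Hybridization controls split the arrays of the series into 2 sets, and each group had 2 arrays in one and 1 in the other. Of the 1169 called probe sets, which were chosen on these same arrays, 1100 differed by more than 3-fold in the same direction within the first set, with 2 arrays a group, and 855 within the second, with 1 array a group. For 19 of the 176 called genes named here, leaving out 1 of the 6 arrays brought the difference under 3-fold (1.58 on the log2 scale) or the adjusted p to 0.05 or more, and these values stand with the genes.

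The share of each gene list that rose or fell is shown in the bar plot of the lists. The 56 lists hold 851 entries, some genes in more than 1, and the 775 with a tested probe set are the ones counted. Lists of stress keratins, CXCR2 ligands, neutrophil surface genes and small proline-rich proteins had from 87.5% to 100% of their tested members called higher, against 2.39% of all genes. The suprabasal keratins, with 57.1%, and the genes of fatty acid synthesis and the sebaceous gland, with 40%, had the highest shares called lower, against 1.90% of all genes.

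**Figure D1:**
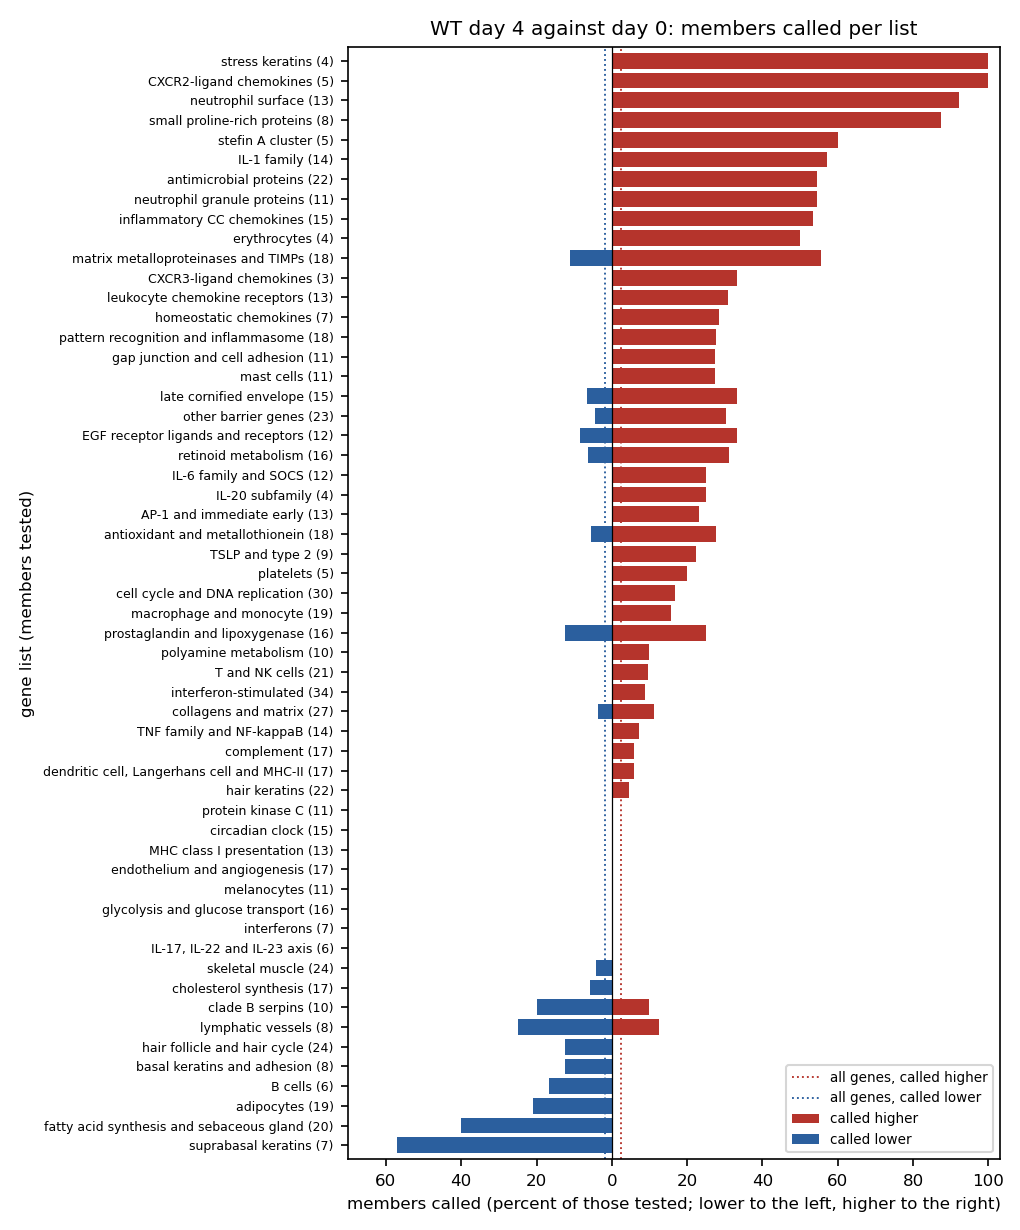
Share of the tested members of each gene list that were called higher (red bars, to the right) or lower (blue bars, to the left) in WT skin at day 4 against day 0, in percent, with the number of members tested in brackets. The dotted lines mark the shares over all genes, 2.39% higher and 1.90% lower, and the lists at the top, among them the CXCR2 ligands with 5 of 5, lie far to the right of them.

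The largest increase of any gene was that of Sprr2f, a small proline-rich protein of the cornified envelope, which read 5.50, 4.11 and 4.90 on the day 0 arrays and 13.49, 13.32 and 13.91 on the day 4 arrays. The difference was 8.74 (SE 0.59, adjusted p = 1.0e-10 by limma), or 427-fold. Cxcl5, a CXCR2 ligand made by epithelium, came next at 8.44. It read 3.31, 3.002 and 2.80 in control skin, close to the lowest value of 2.35 on these arrays, and 11.60, 11.04 and 11.82 at day 4. The others among the 12 largest increases were Lce3a (8.39) and Lce3f (7.72), late cornified envelope proteins induced by barrier damage, Krt6b (8.12), the small proline-rich genes Sprr2i (7.90), Sprr1b (7.58), Sprr2d (7.36) and Sprr2h (7.36), the beta-defensin Defb3 (7.85), the acute-phase protein Saa1 (7.24) and Uox, the uric acid oxidase (7.25). Thus 9 of the 12 belong to the cornified envelope, the stress keratins or the defensins of the epidermis. In each of them every day 4 array lay above every day 0 array, by rule.

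The largest decrease was that of Cyp2e1, a cytochrome P450 that oxidizes ethanol and small solvents, from 12.43, 13.02 and 12.91 to 7.22, 7.30 and 5.42, a difference of -6.14 (SE 0.61, adjusted p = 3.1e-08). Cyp2g1, another cytochrome P450, fell by 6.05, and all of its day 4 arrays read between 4.14 and 4.44. The metallothionein Mt4, a metal-binding protein of stratified epithelia, fell by 5.62, the keratin Krt77 by 5.45, the differentiation-associated Dapl1 by 5.36 and Thrsp, a regulator of lipogenesis, by 5.34. The list of 12 is completed by Oxtr, the oxytocin receptor (-5.27), Serpina12, the adipokine vaspin (-5.23), Pgr, the progesterone receptor (-5.03), Skint10, of a family expressed in epidermis and thymus (-4.71), Scd3, a stearoyl-CoA desaturase of the sebaceous gland (-4.41), and Krt10 (-4.27). For Thrsp 3 probe sets were tested and ran from -5.34 to -0.01, and for Oxtr and Serpina12 a second, dimmer probe set gave -1.18 and -1.04.

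**Figure D2:**
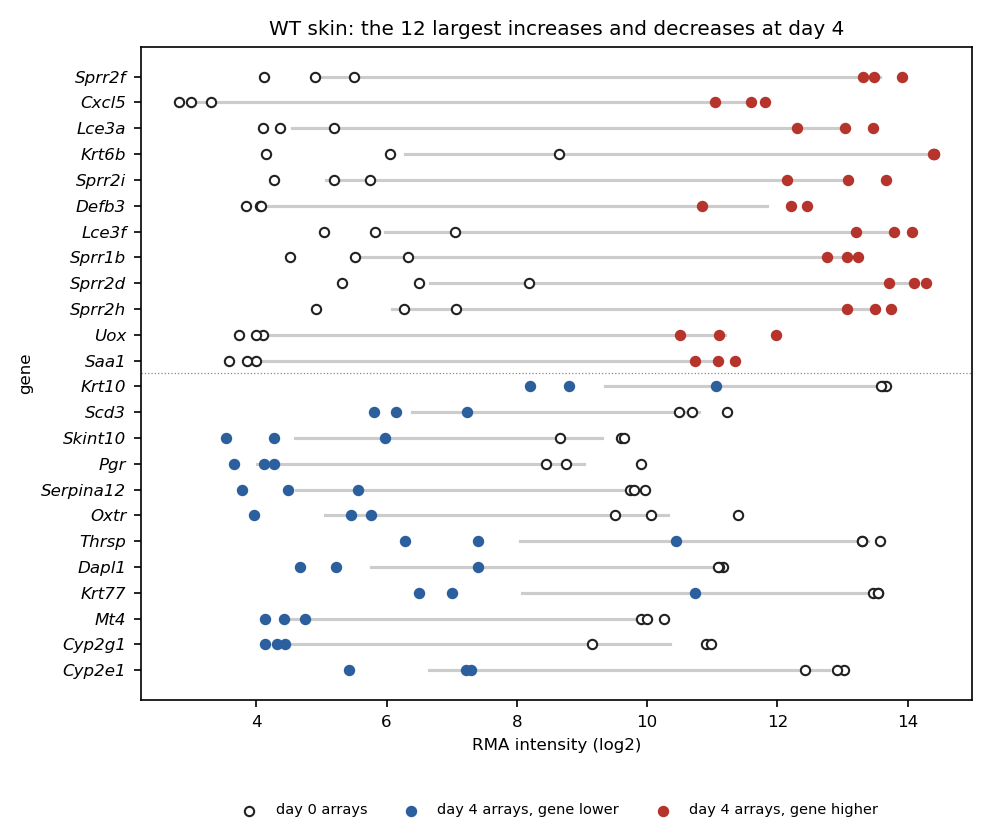
RMA intensity (log2) of the 12 genes with the largest increase and the 12 with the largest decrease in WT skin at day 4. Each point is 1 array, open for the 3 day 0 controls and filled for the 3 day 4 arrays, and the grey line joins the group means. Sprr2f went from a day 0 mean of 4.84 to 13.57, and the day 4 arrays of Krt77, Thrsp and Krt10 are spread widely, with 1 array nearer the controls.

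Neutrophils follow the CXCR2 ligands, which resident cells and arriving leukocytes make. All 5 of the list rose, and none was called lower. Besides Cxcl5, Cxcl3 went from 3.09, 2.97 and 2.85 in control skin to 9.08, 8.16 and 10.17 at day 4, a difference of 6.17 (SE 0.53, adjusted p = 3.6e-09). Ppbp, whose product is stored in platelets and is cut to a CXCR2 ligand, went from 3.83, 3.89 and 3.81 to 9.68, 8.53 and 10.38, at 5.68 (SE 0.27, adjusted p = 5.8e-13). Cxcl1 was already measurable in control skin, at 7.57, 6.77 and 6.96, and reached 12.09, 11.17 and 12.21, a difference of 4.73 (SE 0.28). Its 3 probe sets rose by unequal amounts, from 1.92 to 5.74. Cxcl2 rose by 5.08 (SE 0.66, adjusted p = 1.7e-06). In all 5 genes the lowest day 4 array was replicate 2, and it still lay above every control array. The day 4 and day 0 arrays did not overlap in 51.5% of all tested probe sets and in 1163 of the 1169 called.

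Set against day 2 directly, 4 of the 5 were higher at day 4: Cxcl5 by 6.84 (adjusted p = 1.2e-11), Ppbp by 5.36 (adjusted p = 6.5e-12), Cxcl3 by 4.18 and Cxcl1 by 3.37. Cxcl2 differed by 0.18 (SE 0.66, adjusted p = 0.91) between these days, but its day 2 arrays were uneven. They read 7.45, 10.45 and 6.84, against 8.34, 7.65 and 9.30 at day 4. Only day 2 replicate 2 lay above the day 4 arrays, and the others lay below all of them. In this comparison limma called 417 of all probe sets (1.16%), 246 of them higher at day 4 and 171 lower. Relative to the same day 0 arrays, the median of the 5 ligands was 0.56 at day 1, 1.60 at day 2, 5.68 at day 4 and 0.50 at day 6.

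**Figure D3:**
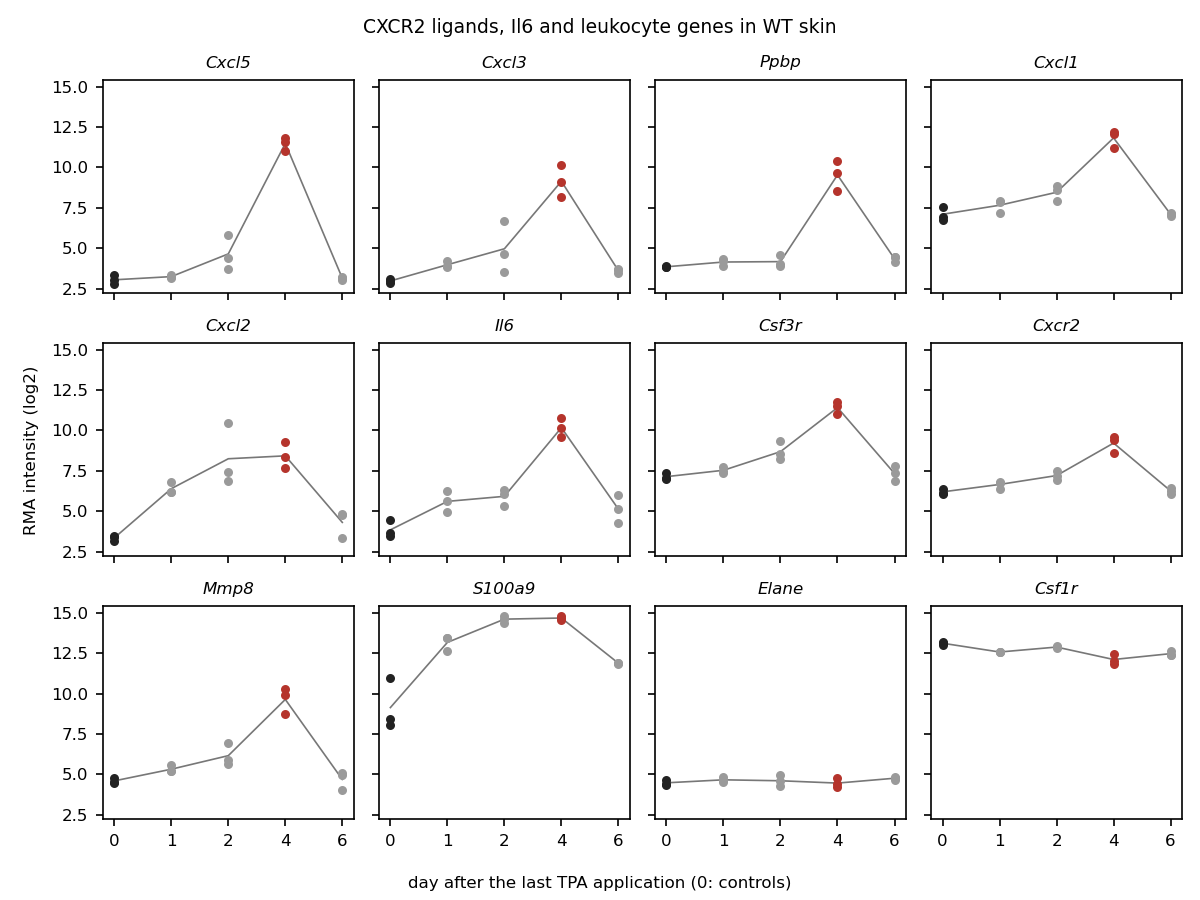
RMA intensity (log2) of the CXCR2 ligands, Il6 and leukocyte genes in WT skin, with 1 point per array, black for day 0, red for day 4 and grey for the other days, a line through the means, and the days drawn at equal distances. Cxcl5, Ppbp and Il6 were near the bottom of the scale at day 0 and at their highest on the 3 day 4 arrays, while Elane stayed between 4.24 and 4.74 on the day 0 and day 4 arrays.

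The promoters of genes that rose together were searched for 3 sequences: TGACTCA, the TPA response element that AP-1 binds, GGGANTTTC, an NF-kappaB site, and GAAANNGAA, the core of the interferon response element, on both strands, with matches of different sequences that overlap each counted. The window ran from 250 bases before to 50 after the gene start in RefSeq (GRCm38.p6), and 12869 of the 17769 genes tested had one. TGACTCA stood in 4.06% of these promoters, in 12.8% of the 329 promoters of genes that rose and in 3.27% of the 245 of genes that fell. GGGANTTTC stood in 1.02%, 3.65% and 0.816% of these 3 sets, and GAAANNGAA in 7.16%, 11.9% and 8.98%. A match is a run of letters and not a measured site, since no binding was measured here.

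Of the 5 CXCR2 ligands 4 had a promoter in the table, and 3 of these 4, in neighbouring genes of chromosome 5, held the NF-kappaB sequence in the same form, GGGAATTTC, beginning from 71 to 97 bases before the start. They are shown because the ligands rose as a group, with the match in capitals and 20 bases on either side.
Cxcl1, chr5:90891154-90891202, plus strand: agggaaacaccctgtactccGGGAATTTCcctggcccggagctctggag
Cxcl2, chr5:90903782-90903830, plus strand: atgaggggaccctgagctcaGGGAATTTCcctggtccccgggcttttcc
Cxcl3, chr5:90786008-90786056, plus strand: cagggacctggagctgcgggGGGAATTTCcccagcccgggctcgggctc

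Of 13 tested receptors and surface genes of neutrophils 12 rose, with a median difference of 4.28, and the other, Itgb2, was at 1.26 (adjusted p = 3.6e-06), which is under 3-fold. Clec4e, a C-type lectin that senses dead cells and fungi, went from 4.11, 3.63 and 3.92 to 10.10, 9.74 and 10.62 (6.26, SE 0.43, adjusted p = 1.5e-10). Csf3r, the receptor for the granulocyte growth factor, rose by 4.28, the formyl peptide receptors Fpr1 and Fpr2 by 4.47 and 4.63, Trem1 by 3.57 and Cxcr2 itself by 3.02 (SE 0.19). S100a8 and S100a9, which form calprotectin and are made by neutrophils and by irritated keratinocytes alike, rose by 5.30 and 5.54. Their control arrays were uneven, S100a8 at 11.15, 7.74 and 8.23, with replicate 1 the highest. Against day 2 neither differed by a called amount (0.12 and 0.07), whereas 10 of the 13 genes of the list were called higher at day 4 than at day 2. Both already had day 2 means of 14.22 and 14.60. The highest value of any probe set on the day 0 and day 4 arrays was 14.97, so a further rise could hardly be seen.

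Granule proteins of neutrophils did not move together. Of those packed late in maturation or made by activated cells, 6 rose, while Ltf, also of this kind, was not called. Lcn2 rose by 6.24 (SE 0.52), Mmp8, the neutrophil collagenase, by 5.04 (SE 0.39) and Mmp9 by 3.62. Ngp rose by 3.61, Camp by 1.72, and Chi3l3, a chitinase-like protein, by 5.68. The primary granule genes, transcribed in bone marrow precursors, were not called. Elane was at -0.02 (SE 0.27), Ctsg at -0.18, Prtn3 at 1.000 (adjusted p = 0.068) and Mpo at -1.21 (adjusted p = 0.058). In total 6 of the 11 tested granule genes rose and none fell. The call of Camp ended without day 4 replicate 1 (adjusted p = 0.055), day 4 replicate 3 (adjusted p = 0.065), day 0 replicate 1 (adjusted p = 0.05001) or day 0 replicate 3 (1.53).

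Of 15 inflammatory CC chemokines, which draw monocytes, eosinophils and T cells, 8 rose. Ccl3 went from 4.05, 3.65 and 3.61 to 7.57, 7.95 and 8.33 (4.18, SE 0.44, adjusted p = 9.0e-08). Ccl2 and Ccl7, the monocyte attractants, rose by 3.44 and 3.68, Ccl22 and Ccl17, ligands of CCR4 on T cells, by 3.64 and 2.42, Ccl4 by 3.52, Ccl12 by 2.90 and Ccl24, an eosinophil attractant, by 3.06. Of the CXCR3 ligands that interferon induces, Cxcl9 rose by 2.97 while Cxcl10 was at 1.06 and Cxcl11 at 0.43. Cxcl13 and Cxcl14, counted among the homeostatic chemokines, rose by 2.71 and 2.23, and the other 5 tested members of that list were not called. Among 13 leukocyte chemokine receptors 4 rose, with Ccr7 (4.37), Ccr1 (3.35) and Cxcr2 the largest. Ccr7 guides dendritic cells to lymph vessels, and it was at 4.74, 4.02 and 4.77 in controls and 9.04, 8.57 and 9.01 at day 4.

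Cytokines of the IL-1 and IL-6 families accompanied them. Il1b went from 7.20, 6.92 and 7.45 to 11.70, 11.79 and 11.84 (4.58, SE 0.32, adjusted p = 1.8e-10). The keratinocyte cytokines Il36g, Il36a and Il36b rose by 3.78, 3.42 and 2.73, the alarmin Il33 by 2.55, the receptor Il1r1 by 1.73, and the antagonists Il1rn and Il36rn by 2.36 and 2.30. That is 8 of 14 tested members, while Il1a was at 1.42 and Il18 at -0.38. Il6 went from 4.47, 3.44 and 3.62 to 10.15, 9.60 and 10.76, a difference of 6.32 (SE 0.39, adjusted p = 2.7e-11), and exceeded day 2 by 4.25 (adjusted p = 9.8e-08). Its relative Osm rose by 2.66 and the feedback inhibitor Socs3 by 2.19, and these were the 3 called of 12. Of the IL-20 subfamily Il24 rose by 3.86, from 3.91, 3.72 and 3.58 to 7.77, 6.996 and 8.002, and Il20 was at -0.13. None of 6 tested members of the IL-17, IL-22 and IL-23 axis was called, with Il17a at 0.64 (adjusted p = 0.24) and Il23a at 0.39. Of 9 members of the TSLP and type 2 group, the IL-13 receptor chains Il13ra2 (2.57) and Il4ra (1.95, its 3 probe sets from 0.39 to 2.52) rose, and Tslp was at 0.41 (adjusted p = 0.3).

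Genes of other leukocytes gave mixed results. Of 19 macrophage and monocyte genes, Arg1 (2.94), which marks alternatively activated and wound macrophages, Fcgr1 (1.83) and Cd14 (1.60) rose. The defining receptor Csf1r read 13.12, 13.20 and 13.03 in controls and 11.81, 12.46 and 12.04 at day 4, a difference of -1.01 (adjusted p = 2.8e-06) that is under 3-fold, and Emr1, the gene of F4/80, was at -0.62 (adjusted p = 0.016). Of 17 genes of dendritic cells, Langerhans cells and MHC class II, Ccr7 was the 1 called. Cd207, the langerin of Langerhans cells, was at -1.40 (adjusted p = 0.0061), H2-Ab1 at -0.93 (adjusted p = 4.5e-05) and Cd74 at -0.76. In the T and NK cell list Gzmb and Gzma, the granzymes, rose by 3.43 and 1.70. They were the 2 called of 21, while 10 of the 21 were higher by the adjusted p alone, whatever their fold, and the median was 0.69. Among those under 3-fold, the receptors Icos and Ctla4 of activated and regulatory T cells were at 1.38 and 1.28, Cd3d was at 0.81, Cd3e at -0.10 and Cd3g at -0.28, which are chains of the T cell receptor complex, and the NK receptor Ncr1 was at 0.64. The call of Cd14 ended without day 4 replicate 1 (1.44), day 4 replicate 3 (1.49) or day 0 replicate 3 (1.53). The call of Gzma ended without day 4 replicate 1 (1.54) or day 0 replicate 1 (1.48).

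The mast cell list showed Mcpt8 (3.96), Hdc (3.29) and Fcer1a (2.34) called higher of 11 tested. Mcpt8 is the protease of basophils, and histidine decarboxylase and the IgE receptor chain are shared by basophils and mast cells. The mast cell proteases Cpa3 (-0.22, SE 0.18), Cma1 (-0.27) and Tpsb2 (-0.52) were not called. Of the 6 B cell genes the immunoglobulin heavy chain Igh-6 fell (-1.73, its 6 probe sets from -1.73 to 0.18) and the B cell receptor chain Cd79a (0.38) was not called. The call of Igh-6 ended without day 4 replicate 3 (-1.53). Among 4 erythrocyte genes Car2 (1.76) and Alas2 (1.69) rose, the first a carbonic anhydrase of many tissues, and Slc4a1, the red cell anion exchanger, was at 0.14. Of 5 platelet genes Ppbp was the 1 called, with Pf4 at 1.45 and Itga2b at 0.07. The call of Alas2 ended without day 4 replicate 1 (1.31) or day 0 replicate 1 (1.49). Under the methods' t-test with Benjamini-Hochberg adjustment it had an adjusted p of 0.061.

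In the epidermis all 4 stress keratins rose. Krt6b read 8.65, 4.15 and 6.05 in controls and 14.40, 14.40 and 14.41 at day 4, a difference of 8.12 (SE 0.79, adjusted p = 2.4e-08). The highest value of any probe set on these arrays was 14.97, so the day 4 arrays were near the top of the scale. Krt16 went from 6.85, 5.43 and 6.06 to 13.22, 13.12 and 13.15 (7.05, SE 0.54, adjusted p = 7.3e-10), Krt6a rose by 5.19 and Krt17 by 2.90. The day 4 arrays agreed closely, and the spread lay in the controls, of which replicate 1 was the highest for Krt6b and Krt16. The 4 were at 4.81 (median) above the same controls at day 1, 5.98 at day 2, 6.12 at day 4 and 3.47 at day 6, and none was called between day 4 and day 2.

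Of 8 tested small proline-rich genes 7 rose, with a median of 7.36. Against the same controls the median was 4.65 at day 1 and 7.05 at day 2, and none was called between days 4 and 2. Besides those named, Sprr1a rose by 4.01 and Sprr2k by 2.94, and Sprr3 was at 0.33 (adjusted p = 0.38). Neighbouring Sprr2 genes are near copies, so probes may read more than 1 of them. In the late cornified envelope family the Lce3 genes Lce3a, Lce3f, Lce3c (5.79) and Lce3b (4.93) rose, with Lce1g (1.77), while Lce1m went the other way, from 11.93, 11.86 and 11.67 to 7.47, 8.70 and 6.86 (-4.14, adjusted p = 2.6e-05). The other 9 of 15 were not called. The call of Lce1g ended without day 0 replicate 2 (1.49). Stfa2l1, Stfa3 and Csta1 of the stefin A protease inhibitors rose by 6.18, 4.92 and 1.89. Among 22 antimicrobial proteins 12 rose, led by Defb3, Saa1, Saa3 (6.45), Lcn2, and Slpi (5.49), an inhibitor of neutrophil elastase. The gap junction genes Gjb2 and Gjb6, connexins of thickened epidermis, rose by 6.18 and 6.11. The kallikrein Klk6 rose by 6.39, the inhibitor Serpinb3a by 5.30, and the transglutaminase Tgm1, which crosslinks the envelope, by 2.29.

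Of the 7 small proline-rich genes that rose, 6 had the TPA response element in the promoter window, against 12.8% of all genes that rose. In the 5 of the Sprr2 group, all on chromosome 3, the first copy began from 193 to 198 bases before the start, and Sprr1a and Sprr2k each had 2 copies. As the Sprr2 genes resemble one another closely, their matches are not separate observations. The 6 genes are also counted within the 12.8%. The windows are shown because this family had the largest increases, with the element in capitals, which reads TGAGTCA or its reverse complement TGACTCA, and 20 bases on either side.
Sprr1a (first copy), chr3:92486001-92486047, minus strand: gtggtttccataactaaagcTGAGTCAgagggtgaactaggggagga
Sprr1a (second copy), chr3:92485971-92486017, minus strand: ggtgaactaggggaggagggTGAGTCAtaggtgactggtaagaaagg
Sprr2d, chr3:92338927-92338973, plus strand: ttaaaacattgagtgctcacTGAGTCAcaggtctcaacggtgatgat
Sprr2f, chr3:92364970-92365016, plus strand: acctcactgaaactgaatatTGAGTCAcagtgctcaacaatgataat
Sprr2h, chr3:92385467-92385513, plus strand: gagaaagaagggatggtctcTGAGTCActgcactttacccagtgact
Sprr2i, chr3:92407778-92407824, plus strand: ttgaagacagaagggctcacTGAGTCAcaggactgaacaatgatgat
Sprr2k (first copy), chr3:92432366-92432412, plus strand: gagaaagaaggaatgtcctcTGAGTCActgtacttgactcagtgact
Sprr2k (second copy), chr3:92432380-92432426, plus strand: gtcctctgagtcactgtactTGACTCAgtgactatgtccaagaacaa

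Genes of epidermal differentiation went both ways. Of 7 suprabasal keratins 4 fell and none rose, whereas of 23 other barrier genes 7 rose, led by Klk6, Cnfn (3.66), a cornified envelope protein, and Rptn (3.29), and 1, loricrin, fell, with a median of 0.75. The 3 promoters found among the 4 keratins that fell, of Krt10, Krt77 and Krt78, held no TPA response element. It stood in only 3.27% of the promoters of all genes that fell, so its absence from 3 says little about these keratins. Krt10 read 13.63, 13.66 and 13.59 on the control arrays and 8.80, 11.07 and 8.21 at day 4, a difference of -4.27 (SE 0.42, adjusted p = 2.7e-08), or 19.3-fold. Its partner Krt1 went from 11.94, 11.62 and 11.42 to 8.84, 10.54 and 8.03 (-2.52, SE 0.48, adjusted p = 2.0e-04). Krt77 went from 13.46, 13.55 and 13.55 to 7.001, 10.74 and 6.49 (-5.45, SE 0.998, adjusted p = 1.2e-04), and Krt78 fell by 1.72. In each the control arrays lay close together, and all day 4 arrays lay below them, with replicate 2 well above replicates 1 and 3 in Krt10, Krt1 and Krt77. Loricrin (Lor) fell from 13.52, 13.48 and 13.43 to 11.06, 12.27 and 10.02 (-2.36, adjusted p = 3.2e-04). Filaggrin (Flg) was at -1.30 (adjusted p = 0.044), and its replicate 2, at 9.02, lay within the range of the controls. Involucrin (Ivl), another envelope precursor, was at 0.04 (SE 0.35).

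Most of these genes were also lower than at day 2. Krt10 was lower than at day 2 by 4.53 (adjusted p = 1.2e-07), Krt1 by 4.40 (adjusted p = 8.7e-07), Flg by 4.37 (adjusted p = 1.6e-06) and Lor by 2.53 (adjusted p = 5.1e-04). Krt77 had already been at -2.85 against the controls at day 2, and its difference between days 4 and 2, -2.59, was not called (adjusted p = 0.086). Against the same controls Krt10 differed by 0.37 at day 1, 0.27 at day 2 and 0.32 at day 6, and Krt1 by 1.72, 1.87 and 1.56. Basal cell genes differed less. Krt14 was at 1.10 (adjusted p = 5.6e-06), Krt5 at 0.22 (SE 0.14, adjusted p = 0.23) and the transcription factor Trp63 at -0.02, all under 3-fold, and 1 of 8 in the list fell: Krt15, a keratin of follicle stem cells and resting basal cells, from 12.28, 12.53 and 12.38 to 9.60, 10.56 and 8.54 (-2.83). The 7 suprabasal keratins held 4 calls with each of the 6 arrays left out in turn, and under the methods' t-test with Benjamini-Hochberg adjustment Krt1 (adjusted p = 0.083), Krt77 (0.055) and Lor (0.07) were no longer called.

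**Figure D4:**
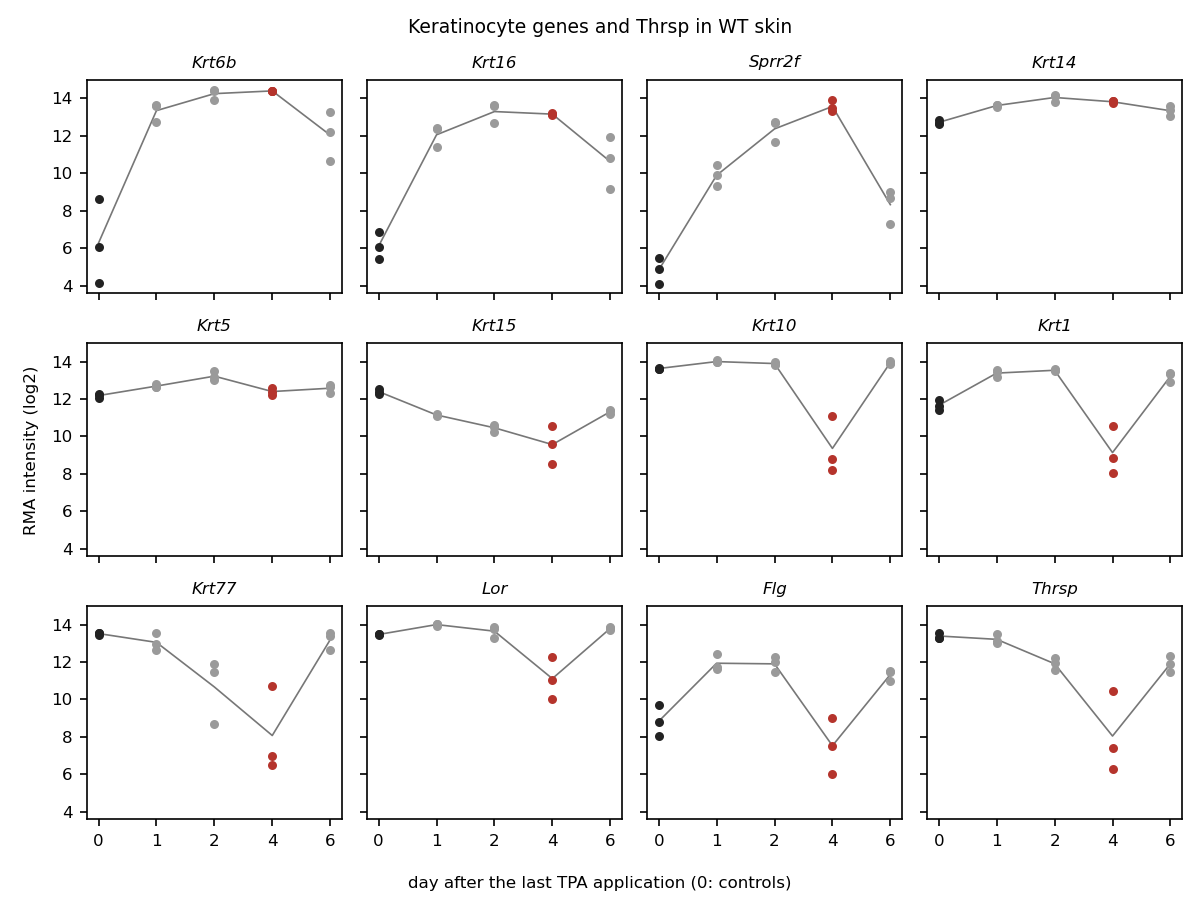
RMA intensity (log2) of stress, basal and differentiation genes of keratinocytes, and of Thrsp, in WT skin, with 1 point per array, black for day 0, red for day 4 and grey for the other days, a line through the means, and the days drawn at equal distances. Krt6b and Krt16 stayed high from day 1 to day 4, whereas Krt10, Krt1, Lor and Flg had their lowest mean at day 4, with 1 array (replicate 2) above the other 2.

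Signals that drive keratinocyte growth rose in part. Of 12 EGF receptor ligands and receptors, Hbegf (3.32), Epgn (3.19), Tgfa (2.76, its 3 probe sets from 0.61 to 2.76) and Areg (2.63), all ligands, rose, Btc, another ligand, fell (-1.62), and the receptor Egfr was at -0.12 (SE 0.18). Of 13 AP-1 and immediate early genes, the targets that phorbol esters are known for, Ier3 (2.42), Fosl1 (1.85) and Junb (1.68) rose, while Fos was at -0.30 (adjusted p = 0.62), Jun at 0.12 and Egr1 at 0.07. Of 30 cell cycle genes 5 rose, Mcm5 (2.000, its 3 probe sets from 0.34 to 2.06), Cdc6 (1.85), Cdk1 (1.82), Rrm2 (1.70) and Bub1 (1.65), and 26 of the 30 were higher by the adjusted p alone, whatever their fold, against 6249 of all 36029 probe sets. Their median was 1.14, and it was 1.49 at day 1, 1.33 at day 2 and 1.61 at day 6 against the same controls. The hair keratin list had medians of 1.21 at day 1, -0.01 at day 2, 0.22 at day 4 and 3.20 at day 6. How much of the cell cycle medians goes with growing follicles rather than with epidermis was not tested. The isoforms of protein kinase C, the receptor of TPA, were not called, with Prkca at -1.14 (adjusted p = 7.4e-06) and Prkcd at 0.51. The 3 probe sets of Prkca disagreed, running from -1.14 to 0.27. The call of Btc ended without day 4 replicate 1 (-1.58). The call of Bub1 ended without day 4 replicate 2 (1.36) or day 0 replicate 2 (1.52).

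Among enzymes of lipid mediators, Alox8 (4.73), a lipoxygenase induced by phorbol ester in mouse skin, Ptgs2 (3.19), the inducible cyclooxygenase, Alox15 (2.94) and Pla2g4e (2.52) rose. Alox12e (-1.90) and Hpgd (-1.96), which breaks prostaglandins down, fell, and the other 10 of 16 were not called. Of 10 polyamine genes Smox, spermine oxidase, rose (2.69), and ornithine decarboxylase (Odc1), a classic TPA-induced enzyme, was at 1.31 (adjusted p = 1.0e-04). Of 18 pattern recognition genes 5 rose, Il1b, Gsdma (2.32), Tlr13 (2.11), Myd88 (1.60) and Cd14. In the TNF and NF-kappaB list the subunit Rel (1.77) was the 1 called of 14. Of 34 interferon-stimulated genes 3 rose, among them Iigp1 (1.68) and Zbp1 (1.60), with a median of 0.39 over the list. By the adjusted p alone, whatever their fold, 17 of the 34 were higher and 3 lower, against 6249 and 7853 of all 36029 probe sets. The median difference between day 4 and day 2 was 0.73. Irf7 was at 0.44 (adjusted p = 0.15), Ifit2 at -0.98 and Mx1 at -1.23. Iigp1 responds to interferon gamma as well as to type I interferon. No interferon or interferon receptor among the 7 tested was called. The call of Alox12e ended without day 4 replicate 1 (adjusted p = 0.051), day 4 replicate 3 (-1.27) or day 0 replicate 2 (adjusted p = 0.058). Under the methods' t-test with Benjamini-Hochberg adjustment it was not called either (adjusted p = 0.17). The call of Myd88 ended without day 4 replicate 1 (1.57), day 4 replicate 3 (1.55) or day 0 replicate 3 (1.57). The call of Iigp1 ended without day 4 replicate 1 (1.54) or day 0 replicate 1 (1.45). The call of Zbp1 ended without day 4 replicate 1 (1.48), day 4 replicate 3 (1.53) or day 0 replicate 1 (1.53).

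Genes of matrix remodelling changed in both directions, with 10 of 18 metalloproteinases, inhibitors and plasmin regulators called higher and 2 lower. Mmp13, the interstitial collagenase of rodents, went from 3.73, 3.61 and 4.06 to 10.73, 10.73 and 11.44, a difference of 7.17 (SE 0.45, adjusted p = 3.6e-11), or 144-fold. Mmp3, stromelysin, went from 9.33, 10.36 and 9.99 to 12.73, 12.48 and 13.14 (2.89). Mmp8, Mmp9, Mmp10 (2.29), Mmp12 (2.29) and Mmp19 (1.83) also rose, with the urokinase receptor Plaur (2.41). The call of Mmp12 ended under the methods' t-test with Benjamini-Hochberg adjustment (adjusted p = 0.062). The tissue inhibitors of metalloproteinases split. Timp1 rose from 7.45, 7.86 and 7.20 to 13.03, 12.83 and 13.09 (5.48, adjusted p = 2.1e-11), Timp3 fell from 12.08, 11.70 and 11.23 to 9.28, 9.28 and 8.72 (-2.58, adjusted p = 2.3e-08), Timp4 fell (-1.94) and Timp2 was at -1.38 (its 6 probe sets from -1.59 to 0.06). Of the 18 genes, 8 were called higher than at day 2, Mmp13 by 3.86 (adjusted p = 1.7e-06), and 1, Mmp11, was called lower, by 2.43.

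Of the 12 called genes in this list, 9 had a promoter in the table and 4 of them the TPA response element, all among the genes that rose. In Mmp13, Mmp3 and Mmp10 it began 35, 46 and 63 bases before the start, and in Plaur 69. The element is in capitals, for comparison with the small proline-rich genes.
Mmp3, chr9:7445756-7445802, plus strand: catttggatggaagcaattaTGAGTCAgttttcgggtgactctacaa
Mmp10, chr9:7502259-7502305, plus strand: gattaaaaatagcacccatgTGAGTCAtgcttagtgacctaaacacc
Mmp13, chr9:7272459-7272505, plus strand: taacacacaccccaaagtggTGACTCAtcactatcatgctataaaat
Plaur, chr7:24462394-24462440, plus strand: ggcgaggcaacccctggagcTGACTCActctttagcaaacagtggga

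Of 27 collagens and other matrix genes, tenascin C (Tnc, 6.03, its 2 probe sets from 4.04 to 6.03), osteopontin (Spp1, 2.62) and Col12a1 (1.92) rose and fibromodulin (Fmod, -2.62) fell. The 6 probe sets of Fmod ran from -2.62 to -0.96. The major dermal collagens were not called, with Col1a1 at -1.02 (adjusted p = 0.0066), Col1a2 at -0.49 and Col3a1 at -0.17. None of 17 endothelial genes was called, the adhesion molecules Sele and Selp being at 1.44 and 1.33 and Pecam1 at 0.41. In the lymphatic list Pdpn, which keratinocytes and fibroblasts also make, rose (1.83), Reln (-2.19) and Mmrn1 (-2.45) fell, and the lineage factor Prox1 was at -0.42. The call of Pdpn ended without day 4 replicate 3 (1.47).

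**Figure D5:**
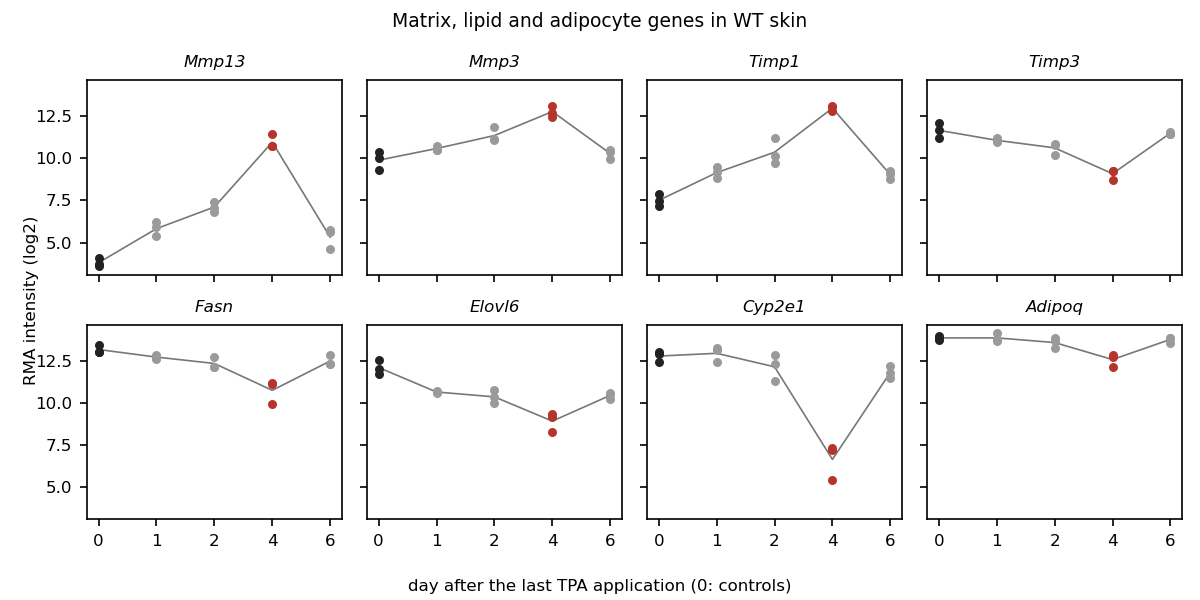
RMA intensity (log2) of matrix, lipid and adipocyte genes in WT skin, with 1 point per array, black for day 0, red for day 4 and grey for the other days, a line through the means, and the days drawn at equal distances. Mmp13 and Timp1 peaked at day 4, at means of 10.97 and 12.98, and Timp3, Fasn, Elovl6 and Cyp2e1 had their lowest mean there.

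Of 20 genes of fatty acid synthesis and the sebaceous gland, 8 were called lower and none higher: Scd3, Far2 (-3.24), which makes wax alcohols, Elovl6 (-3.19), Fasn, the fatty acid synthase (-2.43), Acaca (-2.10), Elovl5 (-1.97), Acly (-1.75, its 4 probe sets from -1.95 to -0.09) and Mogat1 (-1.75). Fasn read 13.05, 13.01 and 13.48 in controls and 11.12, 11.19 and 9.96 at day 4. For Elovl6, 3 probe sets ran from -3.19 to -0.56. Part of the decrease was there earlier: against the same controls the list median was -0.56 at day 1, -0.72 at day 2 and -1.02 at day 4. Scd3 was already at -3.87 and -4.79 on days 1 and 2, and 1 of the 20 genes was called lower than at day 2. In cholesterol synthesis 1 of 17 genes was called lower and none higher, and the median was -0.17. Of 19 adipocyte genes Thrsp, Cidea (-2.23), Pck1 (-2.05) and Retn (-1.61) fell. Adipoq, the adiponectin gene, went from 13.96, 13.76 and 13.89 to 12.74, 12.85 and 12.17, a difference of -1.29 (adjusted p = 4.2e-05) that is under 3-fold, and Fabp4 was at -0.14. The call of Acly ended without day 0 replicate 3 (-1.51). The call of Retn ended without day 4 replicate 2 (-1.55), day 4 replicate 3 (-1.51) or day 0 replicate 3 (-1.51). The call of Pck1 ended under the methods' t-test with Benjamini-Hochberg adjustment (adjusted p = 0.075). The median over the adipocyte list was -0.94, and the day 4 arrays had list means of 10.39, 10.65 and 9.79 against 11.57, 11.32 and 11.51 in controls.

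Skeletal muscle genes, from the thin muscle under mouse skin, had a median of -1.002, and 23 of 24 were lower by the adjusted p alone, whatever their fold, against 7853 of all 36029 probe sets. Mybpc2 was the 1 called (-1.64). The call of Mybpc2 ended without day 4 replicate 3 (-1.50) or day 0 replicate 3 (-1.46). Their medians at the other days were close to it, at -1.35 on day 1, -1.21 on day 2 and -1.25 on day 6 against the same controls. How much of a gene's decrease in whole skin goes with less muscle or fat in the sample was not tested. Most hair keratins were dim in both groups, with list means from 5.23 to 5.37 in controls and from 5.47 to 5.63 at day 4, and the brightest, Krt79, had means of 11.63 and 11.37. Of 22, Krt75, a keratin of the follicle's companion layer, rose (2.52). Of 24 hair cycle genes Sostdc1 (-2.18), Lhx2 (-1.96), a stem cell factor of the follicle, and Lgr6 (-1.95, its 2 probe sets from -1.95 to 0.03) fell, and Shh, which marks growing follicles, was at 0.22. None of 11 melanocyte genes was called, Tyr being at -0.20 and Dct at -1.35.

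Of 18 antioxidant and metallothionein genes, Gsta4 (3.21), the cystine transporter Slc7a11 (3.10, its 2 probe sets from 0.97 to 3.10), Mt2 (2.91), Mt1 (2.51) and haem oxygenase Hmox1 (2.58) rose, and Mt4 fell, reading 9.90, 10.26 and 10.002 in controls and 4.42, 4.75 and 4.13 at day 4. Thus the widely expressed metallothioneins and the epithelial one went opposite ways. Of 16 retinoid genes 5 rose, among them Crabp2 (2.77), Aldh1a3 (1.80), Rarres2 (1.75) and Crabp1 (1.60), and Rbp4, the plasma carrier of retinol, fell (-2.25). Of 10 clade B serpins, Serpinb3a rose and Serpinb7 (-1.98) and Serpinb12 (-1.66, its 2 probe sets from -1.66 to 0.18) fell. C5ar1, the receptor of the complement fragment C5a on neutrophils, was the 1 called of 17 complement genes (1.63), and C3 was at -0.04. No member was called among 13 genes of MHC class I presentation, 15 of the circadian clock and 16 of glycolysis, whose medians were 0.26, -0.15 and 0.25. The call of Crabp1 ended without day 4 replicate 3 (1.34), day 0 replicate 1 (1.54) or day 0 replicate 3 (1.51). The call of Serpinb12 ended without day 0 replicate 1 (-1.47) or day 0 replicate 2 (-1.56). The call of C5ar1 ended without day 4 replicate 3 (1.35) or day 0 replicate 2 (1.51).

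Pgr and Oxtr, both among the 12 largest decreases and both induced by oestrogen in the uterus, were uneven in controls. Pgr read 9.90, 8.76 and 8.45 on the day 0 arrays and 4.12, 3.65 and 4.26 at day 4 (SE 1.08, adjusted p = 6.7e-04), and Oxtr read 11.40, 9.50 and 10.06 and 5.46, 5.76 and 3.96 (SE 0.70, adjusted p = 2.4e-06). Greb1, a further oestrogen-induced gene that was picked after its values had been seen, read 7.92, 6.64 and 6.97 and 3.93, 3.44 and 3.07 (-3.70, adjusted p = 1.1e-04), and its dimmer probe sets reached -0.09. For all 3 genes, day 0 replicate 1 was the highest array.

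Taken against the genotype that lacks D6, the change in WT skin was tested as the D6-deficient change minus the WT change at day 4. On 1 of the 3 probe sets of Ccbp2 the 6 arrays of D6-deficient skin at days 0 and 4 spanned 3.30 to 3.69, below the 4.98 to 5.76 of the 6 WT arrays. On another they spanned 4.75 to 5.42 against 5.37 to 6.26, and on the brightest 7.64 to 8.09 against 7.60 to 8.54. limma called 55 probe sets (0.153%) for a difference in the change, 18 more positive and 37 more negative in D6-deficient skin. None of the 24 genes with the largest WT changes had an adjusted p under 0.05 in this test. For Cxcl5 the D6-deficient change was 8.75 against 8.44 in WT, for Krt10 -5.52 against -4.27 and for Mmp13, outside the 24, 7.005 against 7.17. The widest gaps among the 24 were Krt6b, 4.38 against 8.12 (difference -3.74, SE 1.12, adjusted p = 0.13), and Pgr, -2.54 against -5.03 (2.49, SE 1.53, adjusted p = 0.61). With such standard errors, the lack of a call does not show that the changes were equal. For Krt6b the gap lay mostly in the controls, at 9.42, 8.21 and 11.75 in D6-deficient skin against 8.65, 4.15 and 6.05 in WT. At day 4 its D6-deficient mean differed from WT by -0.23 (limma, adjusted p = 0.97), with both near the top of the scale. The count of 55 depended on single arrays, falling to 13 without WT day 4 replicate 2 and rising to 84 without D6-deficient day 4 replicate 3.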

How the data were processed

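RNA of whole back skin was hybridized to Affymetrix mouse genome arrays, 1 mouse per array, and the authors summarised them by RMA in GeneSpring GX. The deposited values are linear intensities per probe set, of which log2 was taken here. Of 45101 probe sets, 64 controls and the 9008 with the lowest means (20%) were left out. One mean per genotype and day was fitted over all 30 arrays with limma 3.58.1 in R 4.3.3, and p-values were adjusted by Benjamini-Hochberg over the 36029 tested. Calls needed a difference above 3-fold and an adjusted p below 0.05. P-values use a spread estimated for each probe set over the mice of all 10 groups and moderated by limma. They do not measure the spread of the 6 compared arrays alone. Krt10, for example, had an SD of 1.51 between its day 4 arrays and 0.036 between its day 0 arrays. Its SE of 0.42 is smaller than these 6 arrays alone would give. The fit was first tested on simulated data.

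A gene is given by its probe set of highest mean over all arrays, and symbols came from the platform annotation updated through Entrez. Of the tested probe sets 31923 name 1 gene, 685 several and 3421 none, and the last 2 kinds were not named. Named are the 12 genes with the largest increase and the 12 with the largest decrease whose groups do not overlap, up to 6 members per gene list with the largest difference, members that define a cell type, and genes the study discusses. Further called members of a list were named after their values were seen, so that the counts can be followed, and a few that enter the counts, some of them with a larger difference than those named, are not reported here. The members and lists were chosen with earlier results of these data known. The number of arrays limits the precision. Alternatives were the arrays fitted, a replicate block, scaling, the filter, the fold threshold, the test, the hybridization set and single arrays left out. Promoter sequences are those of RefSeq (GRCm38.p6). Figures were drawn with matplotlib 3.10.9 in Python 3.11.15.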

Additional observations from a re-analysis of the deposited data

Results flagged for a closer look

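For 9 genes named above, the change at day 4 differed between D6-deficient and WT skin by limma's test of the difference itself, with 3 arrays in each of the 4 groups. Krt5 differed by -1.36 (D6-deficient change minus WT change, adjusted p = 0.0018), the change being 0.22 in WT and -1.15 in D6-deficient mice. Krt14 differed by -1.23 (adjusted p = 0.012), from 1.10 and -0.13, and Trp63 by -1.03 (adjusted p = 0.035), from -0.02 and -1.05. Flg differed by -3.08 (adjusted p = 0.046), from -1.30 and -4.39, and Stfa3 by -2.40 (adjusted p = 0.046), from 4.92 and 2.53.

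Among cytokines, Il36a differed by -2.75 (adjusted p = 0.036), having risen by 3.42 in WT skin and being at 0.66 in D6-deficient skin. Its antagonist Il36rn differed by -1.50 (adjusted p = 0.049), from 2.30 and 0.81. Tslp, a keratinocyte cytokine of allergic inflammation, went the other way, by 2.44 (adjusted p = 0.0098), from 0.41 in WT to 2.85 in D6-deficient skin. In lipid synthesis Acaca differed by 1.87 (adjusted p = 0.049), from -2.10 and -0.24. For 8 of these 9 genes the day 0 arrays of the 2 genotypes did not overlap, Flg being the exception. At day 4 the arrays of the genotypes overlapped for 6 of the 9 and did not for Krt5, Krt14 and Tslp. The 9 were chosen by a test on these same arrays. The share of all probe sets whose genotypes do not overlap was not computed, so these counts only describe the 9 genes. Stfa3 lay between 13.26 and 13.55 in WT skin and between 13.50 and 13.57 in D6-deficient skin at day 4, against 7.72 to 9.81 and 10.13 to 12.10 at day 0. Acaca lay between 8.54 and 9.29 and between 8.81 and 9.66 at day 4, against 10.80 to 11.57 and 8.97 to 9.83 at day 0. Of the 757 members of all gene lists tested, 25 had an adjusted p under 0.05 in this test and 9 were called. Over all 36029 probe sets the counts were 219 and 55. On 2 of the Ccbp2 probe sets the ranges of the WT and D6-deficient arrays touch or overlap. Groups of 3 arrays were too small for a test of single arrays that stand apart.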

How the results depend on the processing

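The count of 1169 probe sets was 1166 with only the arrays of the comparison in the fit, 1151 with each array centred on its median, 1173 with no filter on low values, 978 with the lowest 50% left out, 1169 with the hybridization sets as a covariate and 1169 with trend and robust moderation. The methods' t-test gave 1156 unadjusted and 1087 after Benjamini-Hochberg adjustment. More than 2-fold gave 3482 (1587 higher, 1895 lower) and no fold threshold 14102 (6249 and 7853). With 1 probe set per gene, 762 were called, 425 higher and 337 lower, by construction fewer. Leaving out each array in turn gave 1021 (without day 4 replicate 3) to 1354 (without day 4 replicate 2), with 602 to 690 higher and 419 to 664 lower. For day 4 against day 2 the range was 345 to 553 about 417, and the other alternatives gave 413 to 418. The count of the genotype difference went from 55 to 35 with only its own 12 arrays, and from 13 (without WT day 4 replicate 2) to 84 (without D6-deficient day 4 replicate 3) when single arrays were left out, and the cause was not tested. It was 28 and 25 without WT day 0 replicates 2 and 3, 33 and 36 without D6-deficient day 4 replicates 1 and 2, and 17 and 15 without D6-deficient day 0 replicates 1 and 3.

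Day 0 and day 4 animals share replicate numbers, and the labels do not say what the numbers mean. Arrays of the same number did not deviate together over the tested probe sets, with correlations of -0.087, -0.039 and -0.113, so no pairing was used. These correlations cannot show whether animals of the same number were handled together. With the replicate number as a block, 1169 probe sets were called, 635 higher and 534 lower, 418 against day 2 and 46 for the genotype difference.

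No called gene named here changed sign under any alternative. Of 176, 19 lost their call without 1 array and 7 under the methods' t-test with Benjamini-Hochberg adjustment (Krt1, Krt77, Lor, Alas2, Alox12e, Mmp12 and Pck1). Among genes that were not called, 7 changed sign near 0. With arrays centred on their median Elane was at 0.023 and Trp63 at 0.019. With single arrays left out, Elane ran from -0.16 to 0.089, Trp63 from -0.098 to 0.094, Il20 from -0.24 to 0.010, Fos from -0.79 to 0.17, Egr1 from -0.21 to 0.33, Ivl from -0.12 to 0.19 and Krt79 from -0.64 to 0.052. The values within each hybridization set were added after the data were seen. With 3 mice a group the exact permutation of a single gene cannot go below 0.1, so calls rest on the spread shared across 30 arrays. Signal limits the dim genes: the lowest mean kept was 3.72, and a change of a gene that lies near it in 1 group is not resolved further down.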
